A study of Homo sapiens with 5 samples.

Results

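The APOBEC3 genes are a family of 7 neighbouring genes (APOBEC3A, APOBEC3B, APOBEC3C, APOBEC3D, APOBEC3F, APOBEC3G and APOBEC3H) that encode DNA cytidine deaminases. Their 7 rows were taken by symbol from 20026 genes measured by RNA-seq in HCT116, an established line of human colorectal cancer cells. The series holds 2 samples transduced with the pLKO.1 lentiviral vector and 3 samples with stable knockdown of ELK4, a transcription factor of the ETS family. Each knockdown sample (shELK4_1, shELK4_2 and shELK4_3) carried a different hairpin, so the replicate number in that group is also the hairpin. All 5 samples went through lentiviral transduction, and no other treatment separated the groups in the labels. The study compared the groups to look for genes whose expression depends on ELK4. Effects of carrying any hairpin rather than the empty vector and effects of losing ELK4 cannot be told apart, and each hairpin was sampled once. Nothing in the labels says that the pLKO.1 samples were separate cultures, so p-values measure only the spread between these samples. The family was chosen on measured values, the lower level of APOBEC3B with the hairpins in this same contrast. The values of APOBEC3B are therefore given as a description with no p-value, while its relatives were taken by name.

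APOBEC3 enzymes remove the amino group of cytosine in single-stranded DNA and leave uracil. In immune cells they are known as restriction factors that mutate the DNA copies of retroviruses and retrotransposons. In tumours, APOBEC3B, which is found in the nucleus, and APOBEC3A are known as sources of C-to-T and C-to-G mutations. APOBEC3A, APOBEC3C and APOBEC3H carry a single deaminase domain, while APOBEC3B, APOBEC3D, APOBEC3F and APOBEC3G carry a pair of them. The genes arose by duplication, and stretches of their transcripts are still nearly identical.

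In the GENCODE v44 annotation of GRCh38 the cluster occupied 151.3 kb of the plus strand of chromosome 22 (chr22:38952741-39104067), in the order A, B, C, D, F, G, H. APOBEC3B (ENSG00000179750) lay at chr22:38982347-38992804 and had 8 exons in its canonical transcript, 1146 of whose 1590 bases were coding. Of the 1985 distinct 50-base words in its annotated transcripts, 26.9% also occurred in another family member. They were shared with APOBEC3A (279 words), APOBEC3D (154), APOBEC3F (101) and APOBEC3G (3), and none was shared with APOBEC3C or APOBEC3H. A read that lies wholly within such a stretch can be assigned to either gene, so the level of APOBEC3B carries that uncertainty. The length of 50 bases was not matched to the reads, so 26.9% is not the share of reads affected. Of the exonic bases of APOBEC3B, 12.9% also lay under the antisense RNA APOBEC3B-AS1, and whether reads were counted by strand is not given in the sources used here.

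The closest stretches are shown because they set how far reads of APOBEC3B can be told from those of its relatives. The longest run of identical coding sequence shared with APOBEC3A was 196 bases, and the coding sequence around its end is printed below, with bases that differ between both genes in capitals and all sequence in the sense direction from GRCh38. The 60 bases begin at coding base 888 of APOBEC3B (chr22:38991496-38991555, plus strand, exonic) and coding base 339 of APOBEC3A (chr22:38961551-38961610, plus strand, exonic), and they differed at 1 base.
APOBEC3B: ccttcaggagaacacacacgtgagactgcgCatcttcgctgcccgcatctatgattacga
APOBEC3A: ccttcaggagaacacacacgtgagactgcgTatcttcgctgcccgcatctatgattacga

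The longest run shared with APOBEC3D was 172 coding bases. The window at its end begins at coding base 143 of both genes, spans an intron in APOBEC3B (chr22:38984200-38985839, plus strand), lies at chr22:39022947-39023006 on the plus strand in APOBEC3D, and held 17 differing bases. Within it the identical run of the first part gives way to sequence by which the genes can be told apart.
APOBEC3B: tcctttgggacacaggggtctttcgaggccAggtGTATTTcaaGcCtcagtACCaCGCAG
APOBEC3D: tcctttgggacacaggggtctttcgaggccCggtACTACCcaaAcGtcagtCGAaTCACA

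The other members differed in how much of their sequence was their own. APOBEC3H shared 0% of its 50-base words with any annotated gene and APOBEC3C 1.2%, so their levels rest almost wholly on unique sequence. The shares were 5.8% for APOBEC3G, 12.0% for APOBEC3F and 20.8% for APOBEC3A. APOBEC3D shared 85.9%, because an annotated readthrough gene (ENSG00000284554) that joins APOBEC3C to APOBEC3D covers 83.2% of its exonic bases, and its level is uncertain for that reason.

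The knockdown was checked first. ELK4 stood at 8.62 and 7.60 FPKM (fragments per length of transcript, scaled to the number of fragments in the library) in the pLKO.1 samples and at 3.14, 2.82 and 2.44 FPKM in shELK4_1, shELK4_2 and shELK4_3, which is 38.7%, 34.8% and 30.1% of the pLKO.1 mean. All hairpin samples were thus below both controls. The log2 fold change was −1.26 ± 0.12 (SE, limma on log2(FPKM + 1), adjusted p = 0.0290), and fold changes throughout are on this scale, which understates changes of low genes. The call of ELK4 was lost without the FPKM limit (adjusted p = 0.114, or 0.145 with a pseudocount of 0.1) and without pLKO.1 replicate 1 (0.452), pLKO.1 replicate 2 (0.300), shELK4_1 (0.0748) or shELK4_3 (0.0806), while its log2 fold change stayed between −1.51 and −1.18. Libraries were similar in summed FPKM (309139 to 319870), and the files carry no read counts, so the depth behind each value is unknown. Of the 7 epithelial markers, EPCAM, CDH1, KRT8, KRT18 and CDX2 were above 1 FPKM in every sample, and VIL1 was below 1 FPKM in all of them. KRT20 was at 1.07 and 1.23 FPKM in pLKO.1 and at 0.885, 0.400 and 0.277 FPKM in shELK4. KRT8, KRT18, KRT20 and CDX2 were lower in shELK4 without overlap, as were 21% of tested genes. EPCAM and CDH1 overlapped, and VIL1, near 0, was higher. The summed level of the 7 was 1890 to 1892 FPKM in pLKO.1 and 950 to 1382 FPKM in shELK4, with KRT18 at 639 and 634 against 397, 216 and 303 FPKM, and its part in the APOBEC3 values was not tested. Of 10 leukocyte markers, 9 were below 1 FPKM in every sample, CD3E, MS4A1 and NKG7 were at 0 throughout, and PTPRC, which encodes CD45, reached at most 0.00526 FPKM. The summed level of this list was 6.37 to 7.49 FPKM in pLKO.1 and 5.60 to 14.6 FPKM in shELK4, nearly all of it CD68, and without CD68 it was at most 0.616 FPKM.

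APOBEC3C and APOBEC3B were the main APOBEC3 transcripts of these cells, and APOBEC3A and APOBEC3G were listed at or near 0. In every sample the order was APOBEC3C, APOBEC3B, APOBEC3F, APOBEC3H and APOBEC3D, and the ranges of neighbours in this order did not overlap within either group. FPKM values are per length, so levels can be set side by side between genes. Together APOBEC3B and APOBEC3C made up 86.2% to 93.0% of the summed FPKM of the family. APOBEC3C stood above 82.0% to 88.9% of all genes listed, and APOBEC3B above 82.4% and 83.8% of them in the controls and 67.7% to 70.9% in the knockdown.

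**Figure D1:**
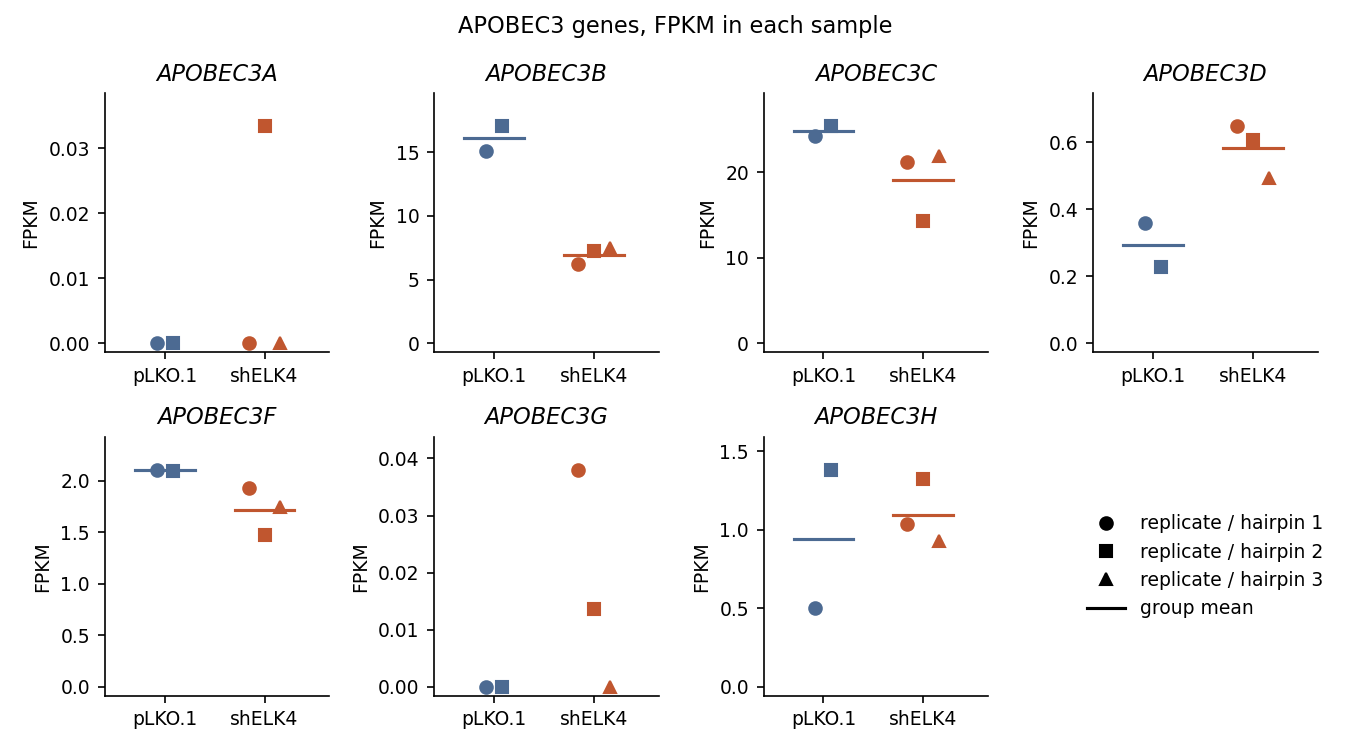
Level of each APOBEC3 gene (FPKM, linear axes with a separate range for each gene) in the 2 pLKO.1 and 3 shELK4 samples, with the marker shape giving the replicate or hairpin number and lines the group means, left out for APOBEC3A and APOBEC3G. APOBEC3B lies at 15.1 and 17.0 FPKM in pLKO.1 and between 6.20 and 7.44 FPKM in shELK4, APOBEC3C and APOBEC3F lie lower by less, and APOBEC3H overlaps.

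APOBEC3B, the nuclear deaminase, was at 15.1 and 17.0 FPKM in the pLKO.1 samples and at 6.20, 7.27 and 7.44 FPKM in shELK4_1, shELK4_2 and shELK4_3. All 3 knockdown samples lay far below both controls. On the log2 scale the controls differed by 0.162, a wider gap than 87.5% of tested genes showed. The means were 16.1 ± 1.36 (SD, n = 2) and 6.97 ± 0.672 (SD, n = 3) FPKM, so that 43.4% of the control level was left, and the log2 fold change was −1.10 ± 0.11 (SE). These are the values that chose the family and they carry no test. Of the 10780 genes tested, 0.167% were called at an adjusted p under 0.05 in the same contrast, which stands here as background only. Because the RNA is from bulk cultures, fewer cells expressing a gene and less RNA per cell cannot be told apart for this or any other gene.

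APOBEC3C, a single-domain deaminase, had the highest level of the family. Its FPKM was 24.2 and 25.4 in pLKO.1 and 21.2, 14.3 and 21.9 in the knockdown. All 3 knockdown samples were below both controls, but shELK4_2 stood well below the other two. The means were 24.8 ± 0.820 (SD, n = 2) and 19.1 ± 4.21 (SD, n = 3) FPKM. The difference did not pass the test (log2 fold change −0.38 ± 0.18 SE, 95% confidence interval −0.82 to 0.06, limma adjusted p = 0.354), and without shELK4_2 the log2 fold change was −0.20. The interval leaves room for a fall of up to 0.82 on the log2 scale.

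APOBEC3F, which carries a pair of deaminase domains and restricts retroviruses, was expressed at a low level. It was listed at 2.11 and 2.09 FPKM with pLKO.1 and at 1.93, 1.48 and 1.74 FPKM with the hairpins. Again the groups did not overlap, and again shELK4_2 was the lowest sample. From 2.10 ± 0.0106 (SD, n = 2) to 1.72 ± 0.225 (SD, n = 3) FPKM, the log2 fold change of −0.19 ± 0.11 (SE) had a 95% confidence interval of −0.45 to 0.06 and did not pass the test (limma adjusted p = 0.412).

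APOBEC3H, a single-domain member outside the stretches shared by its relatives, gave 0.500 and 1.38 FPKM with pLKO.1 and 1.04, 1.32 and 0.928 FPKM with the hairpins. The groups overlapped, since the controls lay on either side of every knockdown sample. On the log2 scale the controls differed by 0.668, a wider gap than 99.9% of tested genes showed. The log2 fold change was 0.14 ± 0.20 (SE, 95% confidence interval −0.34 to 0.63, limma adjusted p = 0.762), and it turned to −0.19 without pLKO.1 replicate 1.

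APOBEC3D, a restriction factor with a pair of domains, was below the limit for testing (1 FPKM in at least 2 samples). Its level was 0.360 and 0.228 FPKM in pLKO.1 and 0.648, 0.606 and 0.494 FPKM in shELK4. The knockdown samples were all above the controls, in the opposite direction to APOBEC3B, APOBEC3C and APOBEC3F. The means were 0.294 ± 0.0928 (SD, n = 2) and 0.583 ± 0.0799 (SD, n = 3) FPKM, and a fit over all genes without the limit gave a log2 fold change of 0.29 (limma adjusted p = 0.205), which did not pass. APOBEC3A, the deaminase known as a mutator alongside APOBEC3B, was listed at 0 in both controls, in shELK4_1 and in shELK4_3, and at 0.0334 FPKM in shELK4_2. APOBEC3G, the best studied restriction factor of HIV, was listed at 0 in both controls and in shELK4_3, at 0.0380 FPKM in shELK4_1 and at 0.0137 FPKM in shELK4_2. No fold change is given for either, since both controls were listed at 0.

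Across the family, 4 of the 7 members reached the limit for testing, and none of APOBEC3C, APOBEC3F and APOBEC3H was called at an adjusted p or had an unadjusted p under 0.05. The unadjusted p-values from limma were 0.0783, 0.115 and 0.505 in that order. Among all tested genes, 8.14% were lower and 8.08% were higher at an unadjusted p under 0.05. APOBEC3C and APOBEC3F did not overlap between groups and were lower in shELK4, as were 21% of tested genes, while 19.1% were higher without overlap. APOBEC3B was also lower without overlap, but its values chose the family and do not count here. APOBEC3D, below the limit for testing, was higher without overlap.

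The hairpins were then set side by side. Relative to the pLKO.1 mean, APOBEC3B was left at 38.6% by shELK4_1, 45.2% by shELK4_2 and 46.3% by shELK4_3. The hairpin with the most ELK4 left thus had the least APOBEC3B, and with 3 hairpins this order is a description. On the log2 scale the hairpins' differences of APOBEC3B were −1.24, −1.04 and −1.01. The SD between hairpins was 0.125 for APOBEC3B, 0.121 for APOBEC3F and 0.138 for APOBEC3H, all close to the median of 0.141 over tested genes. For APOBEC3C it was 0.325, larger than for 90.4% of tested genes, with 85.4%, 57.5% and 88.3% of the control level left. For APOBEC3F the shares left were 91.7%, 70.4% and 82.9%. The hairpins thus spread most in APOBEC3C among the 4 tested members, and both APOBEC3C and APOBEC3F were lowest with shELK4_2.

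**Figure D2:**
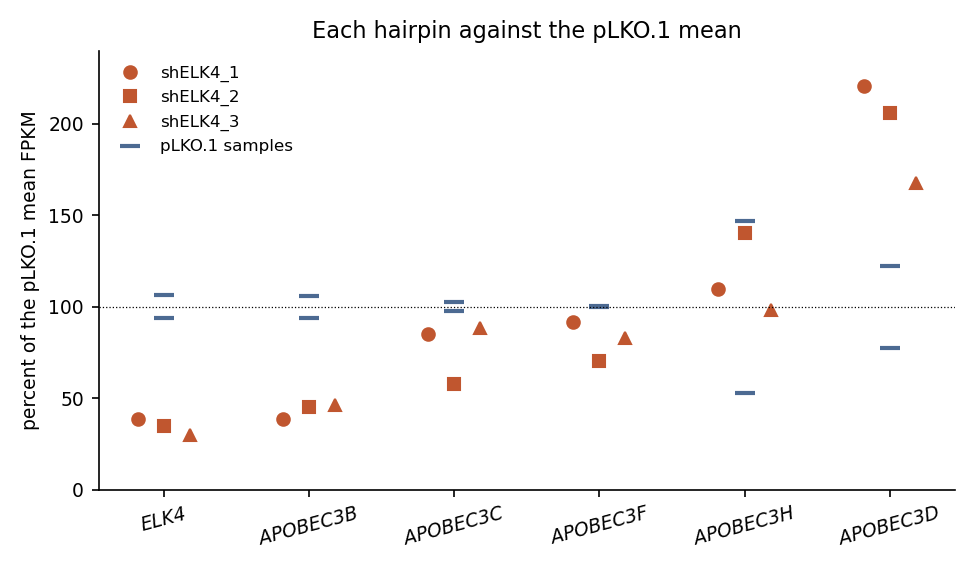
Level in each hairpin sample as a percentage of the pLKO.1 mean, for ELK4 and the 5 APOBEC3 genes detected in every sample, with bars for the 2 pLKO.1 samples and a dotted line at 100%. APOBEC3B lies between 38.6% and 46.3% for all hairpins, APOBEC3C at 57.5% for shELK4_2 and at 85.4% and 88.3% for the others, and APOBEC3D above the controls.

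A sum over the family does not move when reads of near-identical stretches are split between members, apart from differences in length. This holds only where such reads were kept, and their handling is not given in the sources used here. The summed FPKM of the 7 genes was 42.3 and 46.1 in pLKO.1 and 31.0, 25.0 and 32.5 in the knockdown. It was 44.2 ± 2.70 (SD, n = 2) against 29.5 ± 3.98 (SD, n = 3) FPKM, or 66.7% of the control, and includes APOBEC3B, so it is not independent of how the family was chosen. Of the difference of 14.7 FPKM, APOBEC3B made up 9.10 and APOBEC3C 5.69 FPKM. Without APOBEC3B the sum was 27.2 and 29.1 FPKM in pLKO.1 and 24.8, 17.7 and 25.1 FPKM in the knockdown, which is 80.1% of the control. The members that share 50-base words with APOBEC3B (APOBEC3A, APOBEC3D, APOBEC3F and APOBEC3G) were each at or below 2.11 FPKM in every sample, and how reads were divided among them was not tested.

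The makeup of the family shifted with these differences. The shares and the ratio below include APOBEC3B, so they are not independent of how the family was chosen. APOBEC3B made up 35.7% and 36.9% of the summed FPKM with the vector and 20.0%, 29.1% and 22.9% with shELK4_1, shELK4_2 and shELK4_3. APOBEC3C, in turn, made up 57.2% and 55.0% with the vector and 68.2%, 57.1% and 67.4% with the hairpins. The ratio of APOBEC3B to APOBEC3C, which share no 50-base word, was 0.624 and 0.671 in pLKO.1 and 0.293, 0.509 and 0.340 in shELK4_1, shELK4_2 and shELK4_3. The ratio was lower in every knockdown sample, least so in shELK4_2, where APOBEC3C was also low.

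**Figure D3:**
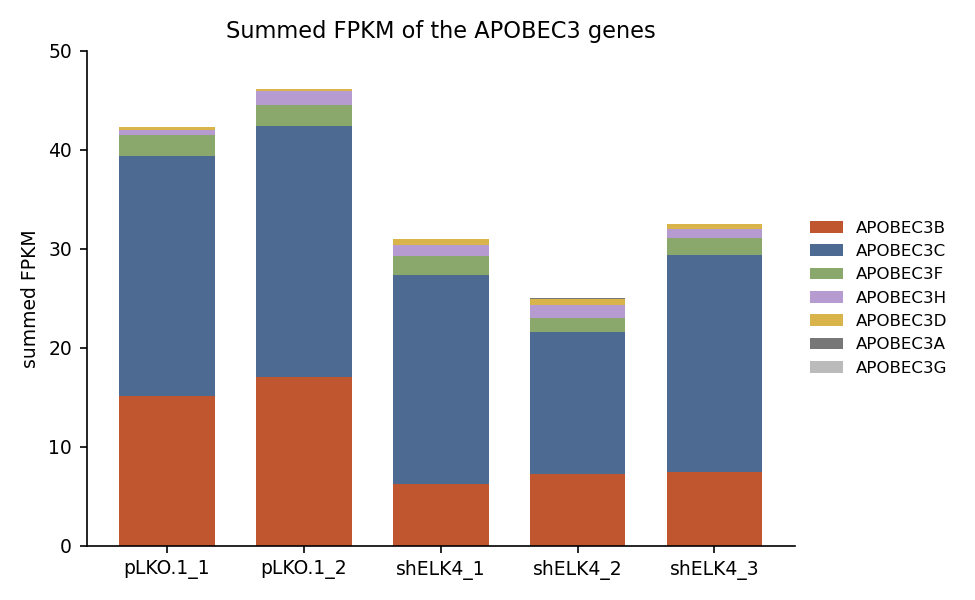
Summed FPKM of the 7 APOBEC3 genes in each sample (linear axis from 0), stacked by gene, with APOBEC3A and APOBEC3G too low to see. The sum lies at 42.3 and 46.1 FPKM in pLKO.1 and between 25.0 and 32.5 FPKM in shELK4, and APOBEC3B and APOBEC3C make up most of every bar.

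The genes whose pattern was most like that of APOBEC3B were taken by the smallest root mean square difference in log2(FPKM + 1) relative to the pLKO.1 mean over the 5 samples, and are described without a test. They were HOXA3 (0.164), IFI6 (0.184), SULF2 (0.195), ANKRD46 (0.200) and CDKN1A (0.200), while the median over tested genes was 0.858. HOXA3, a homeobox transcription factor, was at 1.60 and 1.49 FPKM in pLKO.1 and at 0.269, 0.212 and 0.480 FPKM in shELK4. SULF2, an extracellular heparan sulfatase, was at 2.77 and 2.58 against 1.01, 0.797 and 1.02 FPKM. ANKRD46 was at 7.89 and 7.42 against 3.36, 4.10 and 2.82 FPKM. The measure rests on the pseudocount of 1, which compresses low genes. At a pseudocount of 0.1 the log2 fold change was −2.02 for HOXA3 and −1.42 for SULF2 against −1.20 for APOBEC3B, and HOXA3 kept 20.7% of its control FPKM where APOBEC3B kept 43.4%, so their likeness does not carry over to that scale. The other family members were less like APOBEC3B: APOBEC3C was in place 586 of 10779 genes (0.608), APOBEC3F in place 1882 (0.718) and APOBEC3H in place 8486 (0.983).

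Genes on both sides of the cluster differed among themselves in direction. Of 10 listed neighbours, all tested, 0 were called at an adjusted p under 0.05 by limma. At an unadjusted p under 0.05, 1 was lower and 3 were higher. The shares over all tested genes, 0.167% called and, at the unadjusted limit, 8.14% lower and 8.08% higher, are the background for this and every list below. Their median log2 fold change was 0.18, against −0.009 over all tested genes. CBX6, a Polycomb chromobox gene 80.5 kb before APOBEC3A, was at 26.3 and 28.1 FPKM in pLKO.1 and at 38.1, 67.7 and 44.7 FPKM in shELK4 (log2 fold change 0.82 ± 0.23 SE, adjusted p = 0.170). CBX7, another chromobox gene 16.1 kb after APOBEC3H, was at 5.26 and 4.59 against 6.22, 4.33 and 7.73 FPKM, with overlapping groups (0.23 ± 0.20 SE, adjusted p = 0.611), and its log2 fold change was 0.07 without shELK4_3, 0.42 without shELK4_2 and 0.15 without pLKO.1 replicate 2. SUN2, a protein of the inner nuclear membrane 158.6 kb before the cluster, was at 3.74 and 4.43 against 7.63, 8.76 and 8.66 FPKM (0.88 ± 0.11 SE, adjusted p = 0.0549). PDGFB, a growth factor gene 119.3 kb after it, was at 6.57 and 6.88 against 3.26, 4.15 and 3.73 FPKM (−0.72 ± 0.11 SE, adjusted p = 0.0743). SYNGR1, a synaptic vesicle gene, had a log2 fold change of 0.35 ± 0.10 (SE, adjusted p = 0.176).

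**Figure D4:**
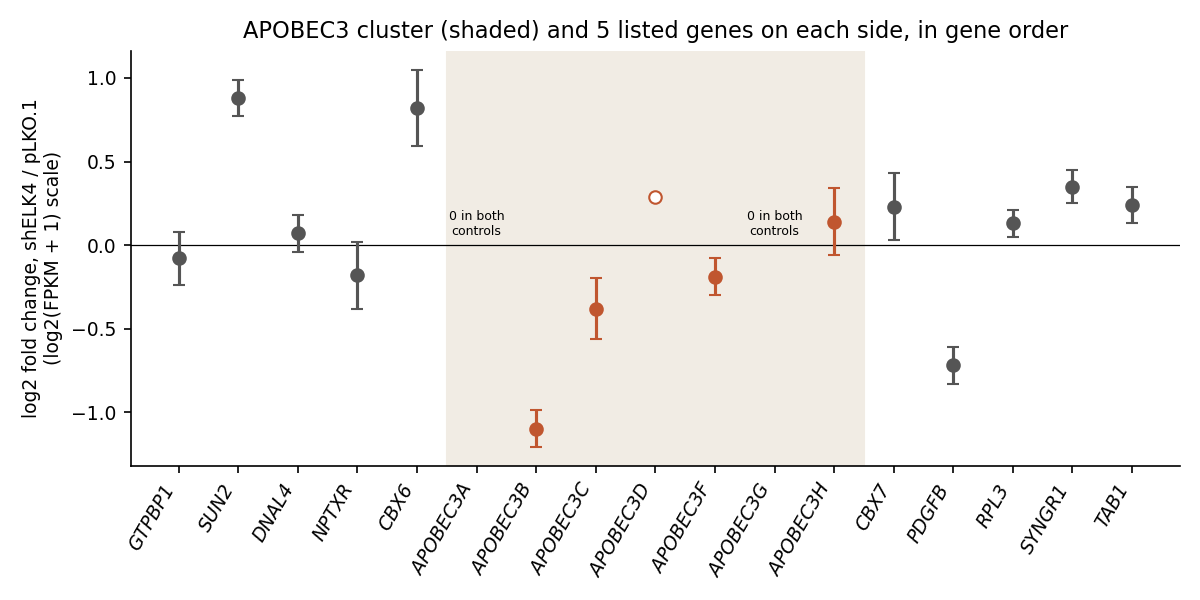
Log2 fold change of shELK4 against pLKO.1 (log2(FPKM + 1) scale) for the 7 APOBEC3 genes, shaded, and 5 listed genes on each side, in their order along chromosome 22 and not to distance. Bars are the SE from limma, the open point is APOBEC3D from the fit without the FPKM limit, and APOBEC3A and APOBEC3G, listed at 0 in both controls, are not drawn. APOBEC3B lies at −1.10, PDGFB at −0.72, CBX6 at 0.82 and SUN2 at 0.88.

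Genes for other deaminases were looked at next. Of 9 other nucleic acid deaminases, APOBEC1, APOBEC2, APOBEC4 and ADARB2 were listed at 0 in every sample. The other 5 act on RNA, and 0 of them were called by limma, with 1 higher and 0 lower at an unadjusted p under 0.05 and a median log2 fold change of 0.04. ADAT3, a subunit of a tRNA adenosine deaminase, had 0.54 ± 0.18 (SE, adjusted p = 0.218), with 0.25 without pLKO.1 replicate 1 and 0.83 without pLKO.1 replicate 2. Its partner ADAT2 had 0.27 ± 0.14 (SE, adjusted p = 0.383), and 0.16 without shELK4_2. ADAR, which edits adenosine in double-stranded RNA, had −0.06 ± 0.09 (SE, adjusted p = 0.763), and its relative ADARB1 −0.05 ± 0.11 (SE, adjusted p = 0.874).

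Uracil left by these enzymes is removed by base excision repair. Of 14 genes for uracil and abasic site repair, all tested, 0 were called by limma, 0 were higher and 0 were lower at an unadjusted p under 0.05, and the median log2 fold change was 0.10. The abasic endonuclease gene APEX1 had a log2 fold change of 0.18 ± 0.08 (SE, adjusted p = 0.325) and APEX2 0.25 ± 0.12 (SE, adjusted p = 0.350, and 0.16 without shELK4_3). TDG, a glycosylase for thymine and uracil, had −0.36 ± 0.16 (SE, adjusted p = 0.330), and REV1, which inserts cytosine opposite abasic sites, had 0.19 ± 0.10 (SE, adjusted p = 0.366).

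Known regulators of APOBEC3B transcription were also looked at. NF-kB, protein kinase C and TEAD factors are known to raise it. Of 12 such genes, all tested, 0 were called by limma, 2 were lower and 0 were higher at an unadjusted p under 0.05, and the median log2 fold change was −0.10. Both were subunits of the noncanonical NF-kB pathway. NFKB2 was at 20.0 and 21.8 FPKM in pLKO.1 and at 17.0, 16.3 and 16.7 FPKM in shELK4 (−0.31 ± 0.09 SE, adjusted p = 0.178). RELB was at 11.0 and 12.1 against 10.2, 9.53 and 8.61 FPKM (−0.26 ± 0.11 SE, adjusted p = 0.296). PRKCD had −0.21 ± 0.13 (SE, adjusted p = 0.449) and TEAD4 −0.23 ± 0.16 (SE, adjusted p = 0.508). Without shELK4_1 they were −0.33 for PRKCD and −0.07 for TEAD4.

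The DREAM complex, which p53 acts on through p21, is known to repress APOBEC3B. Of 15 genes of this group, all tested, 1 was called and lower, where 0.167% of all tested genes were called in either direction. At an unadjusted p under 0.05, 1 was lower and 1 was higher, and the median log2 fold change was 0.12. The called gene was CDKN1A, which encodes p21, at 365 and 372 FPKM in pLKO.1 and 165, 145 and 147 FPKM in shELK4 (−1.27 ± 0.09 SE, limma adjusted p = 0.0147). Its call was lost without the FPKM limit (adjusted p = 0.0746) and without either control, shELK4_1 or shELK4_3 (adjusted p from 0.0602 to 0.349). MYBL2, the B-Myb partner of the MuvB core, had 0.33 ± 0.10 (SE, adjusted p = 0.205), and other members named by their low p were RBL2, which encodes the pocket protein p130 (0.28 ± 0.12 SE, adjusted p = 0.320), the MuvB gene LIN54 (−0.29 ± 0.13 SE, adjusted p = 0.334) and the E2F partner TFDP2 (0.20 ± 0.09 SE, adjusted p = 0.348).

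Interferon-stimulated genes and other restriction factors are often expressed together with APOBEC3 genes. Of 16 interferon-stimulated genes 8 were tested and 0 were called by limma, with 2 lower and 0 higher at an unadjusted p under 0.05, and a median log2 fold change of 0.05. The rest were below the limit for testing and enter neither the counts nor the median. Among them IFIT2 (0.776 and 0.749 against 0.523, 0.462 and 0.395 FPKM) and MX1, near 0, were lower without overlap. The others overlapped, and 21% of tested genes were lower without overlap. The lower pair among the tested genes was IFI6, a mitochondrial protein, at 10.9 and 9.33 against 4.42, 3.65 and 4.96 FPKM (−1.06 ± 0.14 SE, adjusted p = 0.0568), and ISG15, a ubiquitin-like protein (−0.57 ± 0.10 SE, adjusted p = 0.0936). ISG15 was at 173 and 178 FPKM in pLKO.1 and at 128, 106 and 119 FPKM in shELK4. In the other direction, IFI27 had 0.41 ± 0.26 (SE, adjusted p = 0.470) and the transcription factor IRF7 0.32 ± 0.18 (SE, adjusted p = 0.413). IFI27 was at 0.80 without pLKO.1 replicate 1 and at 0.02 without pLKO.1 replicate 2, and IRF7 at 0.50 without shELK4_1. Of 10 other restriction factors 8 were tested and 0 were called by limma, with 1 lower and 0 higher at an unadjusted p under 0.05 and a median log2 fold change of −0.05. The lower gene was SERINC3, a membrane protein that enters virions, at 25.5 and 25.9 against 21.9, 20.9 and 19.3 FPKM (−0.30 ± 0.09 SE, adjusted p = 0.202). The helicase gene MOV10 had 0.13 ± 0.11 (SE, adjusted p = 0.596), the antiviral RNA-binding protein gene ZC3HAV1 −0.10 ± 0.09 (SE, adjusted p = 0.621) and SERINC5, a relative of SERINC3, −0.31 ± 0.30 (SE, adjusted p = 0.640). SERINC5 was at −0.02 without shELK4_2 and −0.58 without shELK4_1, and MOV10 at 0.08 without shELK4_2 or pLKO.1 replicate 2.

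**Figure D5:**
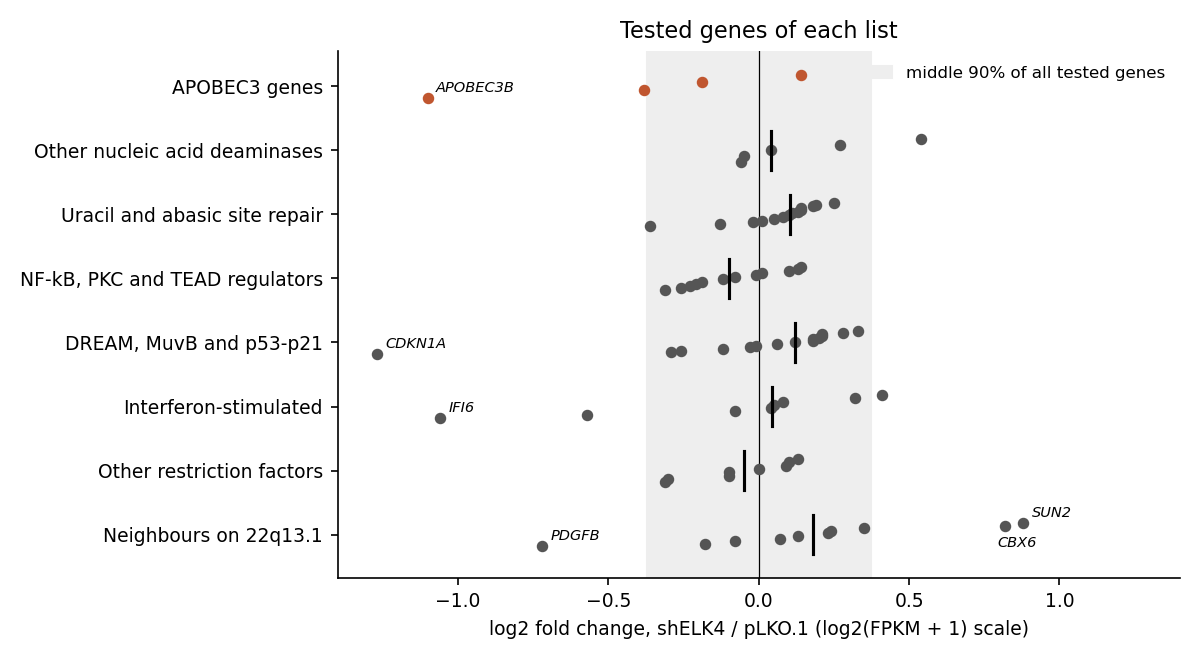
Log2 fold change of shELK4 against pLKO.1 (log2(FPKM + 1) scale) for each tested gene of the APOBEC3 family and of the 7 lists, with vertical bars at the list medians and grey for the middle 90% of all tested genes (−0.37 to 0.38). APOBEC3B lies at −1.10, near CDKN1A at −1.27 and IFI6 at −1.06, and APOBEC3F and APOBEC3H lie within the grey range.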

How the data were processed

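RNA-seq of 5 HCT116 samples was deposited as 1 table of FPKM values per sample. Poly(A) RNA was sequenced, and the submitters' processing notes name Trimmomatic 0.36, HISAT2 2.0.5, HTSeq 0.9.1 and Cufflinks 2.2.1. The genome build, annotation and the handling of reads that map to several places are not given in the sources used here. The FPKM values deposited by the authors, made with Cufflinks and scaled to mapped reads per sample, carry no depth. Of 20030 rows, 4 with names that were not unique were dropped, and 27 names had been turned into dates, none of them a gene reported here.

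Genes with at least 1 FPKM in at least 2 samples (10780) entered a limma 3.58.1 fit in R 4.3.3 on the log2(FPKM + 1) scale (trended variance, 2 pLKO.1 against 3 shELK4 samples, Benjamini-Hochberg adjustment over all tested genes, two-sided). A gene was called at an adjusted p under 0.05. The fit was tested on simulated data. As alternatives, the pseudocount was set to 0.1, the FPKM limit was dropped, both were done at once, and fits were made with a replicate block, median-of-ratios scaling, quantile normalization, a variance weight for each group and each sample left out in turn. Positions and shared 50-base words came from GENCODE v44 and GRCh38, whose build may not be that of the files.

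The members and gene lists were chosen with earlier results of these data known, and 2 listed genes are not reported here. Named from each list were genes called, and otherwise up to 4 with the lowest unadjusted p, together with all members, ELK4, CBX6 and CBX7, and the 5 genes most like APOBEC3B. Group labels came from sample titles and treatments.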

Additional observations from a re-analysis of the deposited data

How the results depend on the processing

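The log2 fold change of APOBEC3B ranged from −1.20 to −1.02 over 12 alternatives (−1.18 to −1.02 when a sample was left out). Not all of the 12 are separate checks of a fold change. Dropping the FPKM limit or weighting the groups cannot change it, and the replicate block repeats the value without shELK4 replicate 3. APOBEC3C ranged from −0.49 to −0.20 and APOBEC3F from −0.29 to −0.13 over the same alternatives, and neither was called. The lowest limma adjusted p was 0.146 for APOBEC3C and 0.276 for APOBEC3F, both with group weights. Their groups did not overlap, so leaving out a sample could not bring either gene above 0. APOBEC3H ranged from −0.19 to 0.48 when a sample was left out (adjusted p from 0.533 to 0.928 over all 12), below 0 without pLKO.1 replicate 1. The summed FPKM, 66.7% of the control, was 80.1% without APOBEC3B. The 18 genes called became 0 with no FPKM limit, at either pseudocount (2270 and 2247 of 16223 genes at an unadjusted p under 0.05), and 413 with a variance weight for each group. Leaving out a sample gave 0 to 95 calls: 0 without pLKO.1 replicate 1, pLKO.1 replicate 2 or shELK4 replicate 1 (596, 588 and 1953 genes at an unadjusted p under 0.05), 1 without shELK4 replicate 3 and 95 without shELK4 replicate 2. Where a single control was left, it was assumed to vary like the knockdown samples. The DREAM list went from 1 call to 0 with no FPKM limit, at either pseudocount, and to 0 to 1 when a sample was left out. The interferon list went from 0 calls to 2 with group weights and to 0 to 1 when a sample was left out, and the neighbours from 0 to 3 and to 0 to 1 (PDGFB, adjusted p = 0.0474 without shELK4 replicate 2). ADARB1 ranged from −0.09 to 0.04 when a sample was left out, above 0 without shELK4 replicate 2.

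With the replicate number as a block, 22 genes were called, APOBEC3B was at −1.14, and the interferon list had 1 call (IFI6, adjusted p = 0.0490). In this fit shELK4_3 is the only sample with its number and does not enter the contrast. The block fold changes therefore equal those without shELK4_3, and the fit leaves little spread from which to judge a call. The numbers mark hairpins in 1 group only, and residuals of same-numbered samples correlated at 0.078 and 0.023 over tested genes. The residuals of the controls mirror each other. These correlations therefore cannot decide whether same-numbered samples shared a culture or batch.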
